A study of Mus musculus with 6 samples.

Results

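The Wnt genes measured here were the ligands, receptors, co-receptors and secreted inhibitors of the pathway together with a few of its intracellular parts and targets. They were chosen by symbol: every probe whose platform gene symbol starts with Wnt and a number, Fzd, Sfrp or Dkk, plus Frzb, Wif1, Lrp5, Lrp6, Axin2, Ctnnb1, Lef1, Tcf7l2 and Ccn4 (older symbol Wisp1). This gave 48 genes on 92 of the 45281 probes of the array. A probe was kept for testing if 3 or more of the 6 arrays gave it a detection p-value below 0.05, as 40.2% of all probes did. Of the 92 Wnt probes, 30 were kept. Of the 48 genes, 20 had a kept probe, beside 10204 of all 19057 genes on the array.

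Of the 6 arrays, 3 were of whole hearts of male wild-type C57Bl6 mice at 72 h (3 days) of reperfusion, after the left anterior descending coronary artery had been occluded for 90 min (ischemia-reperfusion, IR). The other 3 arrays were of uninjured hearts of male wild-type C57Bl6 mice. The labels say that the control mice had no surgery, while the column names of the signal table call them sham, and the sources used here do not settle which holds. Should there have been no surgery, what the operation itself does and what ischemia does cannot be told apart. Nothing says that the 3 arrays of a group came from separate mice, so p-values measure the spread between arrays, which may be technical. The whole heart was taken, so injured and spared muscle were mixed, and in such a sample fewer cells of a type and less RNA per cell cannot be told apart. Arrays are named by the numbers in their column names, 106, 107 and 886 for IR and 109, 110 and 904 for uninjured, and values are always given in that order.

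Wnt proteins are secreted, lipid-bearing ligands that bind Frizzled receptors at the cell surface, with Lrp5 or Lrp6 as co-receptor in the beta-catenin branch. Without ligand, a destruction complex built on Axin marks beta-catenin for breakdown, and with ligand beta-catenin enters the nucleus and acts with TCF and LEF factors. Secreted Frizzled-related proteins and Dickkopf proteins act outside the cell on ligands or co-receptors, and in the adult heart the pathway is known mainly from repair after infarction, from fibroblasts and from vessels.

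Values are log2 of background-corrected, quantile-normalized intensity plus 16, which makes the fold changes of dim genes look smaller than they are. The fold change is IR minus uninjured on that scale, tested with limma across all 10204 genes with Benjamini-Hochberg adjustment and a threshold of 0.05. Most genes on the array passed: 73.9% in either direction, 39.4% higher in IR and 34.5% lower. Against that background, 9 of the 20 Wnt genes were higher in IR hearts, 7 were lower and 4 did not pass. All 9 had every IR value above every uninjured value, as had 40.7% of all genes, and all 7 had every IR value below, as had 35.9%, so the groups of 16 Wnt genes did not overlap, against 76.7% of all genes. Of 30 kept Wnt probes, 14 were higher and 9 lower, beside 36.5% and 33.1% of all kept probes. Genes at least 2-fold higher made up 15% of all genes and those at least 2-fold lower 13.6%, and among the Wnt genes these were 5 (Ccn4, Sfrp2, Sfrp1, Dkk3 and Frzb) and 2 (Fzd10 and Wnt5a). The median log2 fold change was -0.16 over the 20 Wnt genes and 0.05 over all genes. A gene that is bright in 1 group only can pass the detection filter through that group alone and must then differ, so these counts describe the genes that passed and are not evidence about the family.

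Of all probes, 18013 to 19243 were detected on the IR arrays and 15891 to 17843 on the uninjured arrays. The 75th percentile of the deposited intensities was 135 to 138 on IR arrays and 109 to 111 on uninjured arrays. Correlations of the log2 values were 0.995 to 0.997 among IR arrays, 0.990 to 0.991 among uninjured arrays and 0.824 to 0.840 between the groups. Among cell type markers, 5 of 6 measured cardiomyocyte genes were lower in IR hearts (Nppa was higher), and their summed linear intensity was 27518 to 29939 in IR hearts and 43619 to 45963 in uninjured hearts. All 8 activated fibroblast markers were called higher, with sums of 14295 to 14736 in IR hearts and 2929 to 3424 in uninjured hearts, although Postn, undetected in uninjured hearts, showed no rise against its bound. All 8 measured macrophage markers were higher, with sums of 15446 to 16881 in IR hearts and 1881 to 2289 in uninjured hearts, as were all 5 measured neutrophil markers, with sums of 2572 to 4020 in IR hearts and 31.6 to 77.9 in uninjured hearts. Of the 6 measured mural cell markers 1 was higher and 4 were lower (499 to 537 in IR hearts, 1598 to 1778 in uninjured hearts). Of the 6 measured endothelial markers 1 was higher and 3 were lower (2048 to 2087 in IR hearts, 2167 to 2260 in uninjured hearts). Resident fibroblast markers were split, 4 higher and 2 lower of 8, with sums of 11659 to 11915 in IR hearts and 10020 to 10523 in uninjured hearts. Fewer markers of other cells could be measured. Of 2 T cell markers, Il7r was higher and Cd3d did not pass (sums of 148 to 174 in IR hearts, at most 24.2 in uninjured hearts). Also higher were 2 of 3 epicardial markers (122 to 161 in IR hearts, at most 50.4 in uninjured hearts) and 1 of 2 skeletal muscle markers (5096 to 6761 in IR hearts, 2206 to 5848 in uninjured hearts). The 1 B cell marker did not pass (18.4 to 26.3 in IR hearts, 12.3 to 26.7 in uninjured hearts). Not detected on any array were Myl7 for cardiomyocytes, Kdr for endothelium, Cnn1 for mural cells, Cd3e, Cd4 and Cd8a for T cells, Pax5 for B cells and Myh4, Myh1 and Tnnc2 for skeletal muscle. The Wnt values come from the same hearts as these markers, and the part of cell makeup in them was not tested.

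The sequences just before the transcription start are shown for 4 of the called Wnt genes. They are Sfrp2 and Frzb, secreted inhibitors that were higher in IR hearts, Fzd1, a receptor that was higher, and Axin2, a feedback gene that was lower. No such sequence was available for Ccn4, Sfrp1, Dkk3 and Wnt5a. The 4 were picked, so how many of them hold a match says nothing about the family. Each window runs from 250 bases before to 50 bases after the start, 5′ to 3′ on the gene's own strand, from RefSeq's annotation of the mouse build GRCm38.p6. Capitals mark the core letters CTTTGA bound by TCF and LEF factors, searched on both strands, so that the reverse complement TCAAAG also counts. No other spelling was searched. Sfrp2 lies at chr3:83766071-83766370 on the plus strand and Frzb at chr2:80447347-80447646 on the minus strand. Fzd1 lies at chr5:4758167-4758466 on the minus strand and Axin2 at chr11:108920099-108920398 on the plus strand.
Sfrp2: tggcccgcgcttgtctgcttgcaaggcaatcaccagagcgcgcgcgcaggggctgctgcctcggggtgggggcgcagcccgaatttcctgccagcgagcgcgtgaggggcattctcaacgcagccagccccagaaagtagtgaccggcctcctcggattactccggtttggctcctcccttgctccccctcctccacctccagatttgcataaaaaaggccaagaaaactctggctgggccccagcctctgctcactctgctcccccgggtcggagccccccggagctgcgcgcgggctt
Frzb: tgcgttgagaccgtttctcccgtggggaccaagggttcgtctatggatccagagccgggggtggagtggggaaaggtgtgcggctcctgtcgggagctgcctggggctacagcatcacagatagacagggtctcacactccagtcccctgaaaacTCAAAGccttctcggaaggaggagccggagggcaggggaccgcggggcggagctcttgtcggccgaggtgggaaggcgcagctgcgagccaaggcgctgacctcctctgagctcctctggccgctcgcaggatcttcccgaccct
Fzd1: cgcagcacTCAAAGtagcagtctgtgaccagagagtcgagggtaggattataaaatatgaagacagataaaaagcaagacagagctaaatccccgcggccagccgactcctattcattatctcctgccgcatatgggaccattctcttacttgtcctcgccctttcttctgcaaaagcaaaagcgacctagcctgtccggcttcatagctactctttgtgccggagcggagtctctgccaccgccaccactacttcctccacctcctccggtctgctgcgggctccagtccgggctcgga
Axin2: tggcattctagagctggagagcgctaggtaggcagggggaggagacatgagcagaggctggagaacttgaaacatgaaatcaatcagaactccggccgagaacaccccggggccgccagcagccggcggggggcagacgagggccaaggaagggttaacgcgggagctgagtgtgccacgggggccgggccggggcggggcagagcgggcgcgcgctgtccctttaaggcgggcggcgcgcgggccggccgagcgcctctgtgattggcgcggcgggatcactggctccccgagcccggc
The Frzb window held 1 match that begins at position -95 from the start, and the Fzd1 window held 1 that begins at -242. The Sfrp2 and Axin2 windows held none, nor did that of Fzd10, which is not shown. Of all 32851 windows in the table, 16% held at least 1 match. The table had windows for 32 of the 48 Wnt genes and for 12 of the 20 with a kept probe, of which 3 held a match (Frzb, Fzd1 and 1 of the 3 Wnt5b windows). This last count is of genes, some of which have several windows, so it cannot be set against the share of windows. A match is a description of these letters in this window only.

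Detection split the Wnt genes evenly. Of the 48 genes, 24 were detected on at least 1 array by any of their probes, 11 on all 6 arrays, and 24 on none. A detection p-value under 0.05 passes about 5% of probes without signal, so detection on a single array carries little weight. With a detection p-value under 0.01, 21 genes were detected on at least 1 array and 9 on all 6. The same counts over all genes are not given here, so these do not compare the Wnt genes with others.

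**Figure D1:**
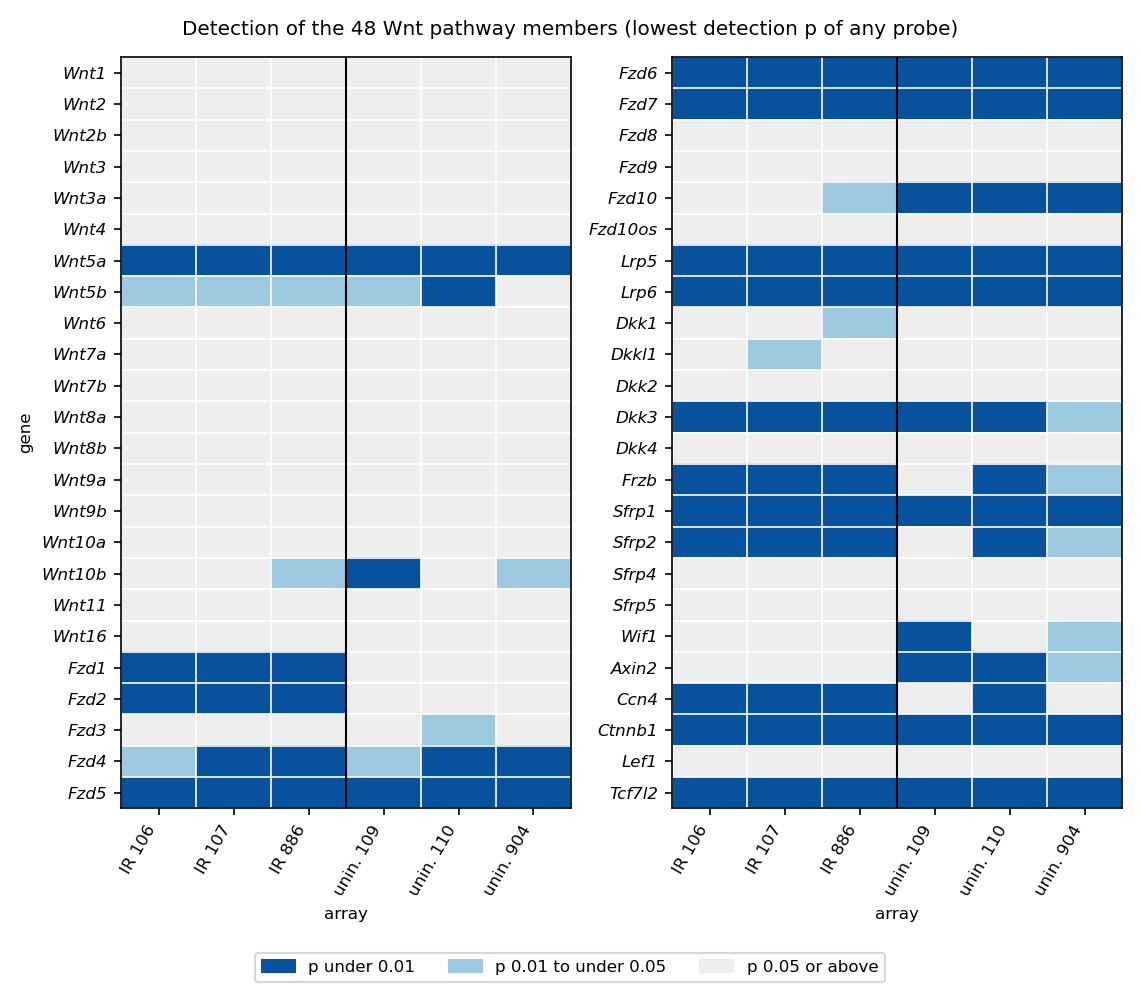
Detection of the 48 Wnt genes on each array (columns, IR arrays left of the line and uninjured arrays right of it), coloured by the lowest detection p-value of any probe of the gene. Most Wnt ligands are pale on every array, while 7 of the 10 Frizzled receptors have a kept probe.

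The ligands were the least detected group: 16 of 19 were not detected on any array. These were Wnt1, Wnt2, Wnt2b, Wnt3, Wnt3a, Wnt4, Wnt6, Wnt7a, Wnt7b, Wnt8a, Wnt8b, Wnt9a, Wnt9b, Wnt10a, Wnt11 and Wnt16. Their 26 probes read 77.8 to 95.1 on the IR arrays and 72.1 to 91.5 on the uninjured arrays in deposited intensity, before any background was removed. No probe among them passed detection, so their RNA was not detectable on these arrays, which does not show that it was absent.

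The 3 ligands with a kept probe were Wnt5a, Wnt5b and Wnt10b. Wnt5a, a ligand known mainly for signalling without beta-catenin, read 5.22, 5.31 and 5.29 on the IR arrays, against 6.76, 6.57 and 6.95 on the uninjured arrays. All IR values lay below all uninjured values, and the spread within IR was small. Wnt5a averaged 5.28 ± 0.049 in IR hearts and 6.76 ± 0.189 in uninjured hearts (SD, n = 3 each), a log2 fold change of -1.48 (SE 0.103, limma adjusted p = 8.77e-06). This was the only ligand called in either direction, and it was detected on all 6 arrays. Wnt5a has 3 probes on the array. A further Wnt5a probe was detected on 2 uninjured arrays and on no IR array, and the third was not detected.

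Wnt5b, the close paralog of Wnt5a, read 4.75, 4.89 and 4.70 on the IR arrays, against 4.94, 5.34 and 4.82 on the uninjured arrays. The groups overlapped and the log2 fold change of -0.25 (SE 0.139, limma adjusted p = 0.137) did not pass. Without uninjured array 904 it passed (-0.36, limma adjusted p = 0.0476). Wnt10b, a ligand of the beta-catenin branch known from bone and fat, read 4.30, 4.25 and 4.74 on the IR arrays, against 6.15, 4.26 and 4.98 on the uninjured arrays. The uninjured values of Wnt10b ranged from below detection on array 110 to the highest value on array 109. Its log2 fold change of -0.70 (SE 0.436, limma adjusted p = 0.183) did not pass, but did without uninjured array 110 (-1.14, limma adjusted p = 0.0230).

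The Frizzled receptors moved in both directions. Of 10 Frizzled genes, 7 had a kept probe. Of these, 4 were higher in IR hearts (Fzd1, Fzd2, Fzd5 and Fzd7) and 3 were lower (Fzd4, Fzd6 and Fzd10), beside 39.4% and 34.5% of all genes. Fzd8 and Fzd9 were not detected on any array, and Fzd3 was detected on 1 uninjured array only. Fzd10os, a transcript antisense to Fzd10, was not detected.

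Fzd10 read 4.37, 4.41 and 4.72 on the IR arrays, against 6.80, 6.44 and 7.17 on the uninjured arrays. The groups lay far apart, with IR at the level of background: the gene was detected on all 3 uninjured arrays and on 1 of 3 IR arrays. Fzd10 averaged 4.50 ± 0.19 in IR hearts and 6.80 ± 0.366 in uninjured hearts (SD, n = 3 each), a log2 fold change of -2.30 (SE 0.189, limma adjusted p = 2.17e-05). With the 2 IR values below detection raised to the lowest detected signal of their arrays, it was at least 4.34-fold lower. Only 1 of its 3 probes was kept, and the other two were not detected on any array.

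Fzd1 and Fzd2, receptors that can couple to beta-catenin, were detected on all 3 IR arrays and on no uninjured array. Fzd1 read 5.18, 5.57 and 5.50 on the IR arrays, against 4.65, 4.46 and 4.40 on the uninjured arrays. Fzd2 read 5.39, 5.35 and 5.58 on the IR arrays, against 4.34, 4.59 and 4.52 on the uninjured arrays. For both, every IR value lay above every uninjured value. Since both were below detection in uninjured hearts, only a bound can be given: Fzd1 was at least 1.54-fold higher and Fzd2 at least 1.56-fold higher. The bound was taken against the lowest detected signal of each uninjured array where that was above the gene's own value. The limma adjusted p-values, 0.000299 for Fzd1 and 7.2e-05 for Fzd2, belong to the fitted values and not to the bounds. Both genes passed the detection filter through the IR arrays alone, so some difference was built in by the filter.

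Fzd5 and Fzd7 were detected on all 6 arrays, and both were higher in IR hearts. Fzd5 read 6.91, 6.90 and 7.03 on the IR arrays, against 6.05, 6.14 and 6.42 on the uninjured arrays, a log2 fold change of 0.74 (SE 0.108, limma adjusted p = 0.00052). Fzd7 read 6.07, 6.15 and 6.18 on the IR arrays, against 5.58, 5.67 and 5.64 on the uninjured arrays, a log2 fold change of 0.51 (SE 0.0661, limma adjusted p = 0.000273). Neither gene's groups overlapped. Of the 4 Fzd5 probes only 1 was kept.

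Fzd6, a receptor known for tissue polarity in skin and hair, read 6.09, 6.33 and 6.34 on the IR arrays, against 7.13, 7.19 and 6.99 on the uninjured arrays. The groups did not overlap, and its log2 fold change was -0.85 (SE 0.0959, limma adjusted p = 0.000126). Its second probe was lower too, at -0.57 (limma adjusted p = 0.0169). Fzd4, the receptor for norrin in retinal vessels, read 4.79, 4.92 and 4.55 on the IR arrays, against 5.07, 5.12 and 5.61 on the uninjured arrays. The IR values lay below the uninjured ones by a narrow margin on these arrays. Its log2 fold change of -0.51 (SE 0.164, limma adjusted p = 0.0244) lost its call without IR array 106 (-0.53, adjusted p = 0.0571) or IR array 886 (-0.41, adjusted p = 0.0863), and its second probe did not pass (-0.20, adjusted p = 0.234). Of the 7 Frizzled tests, that of Fzd4 gave the highest adjusted p.

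**Figure D2:**
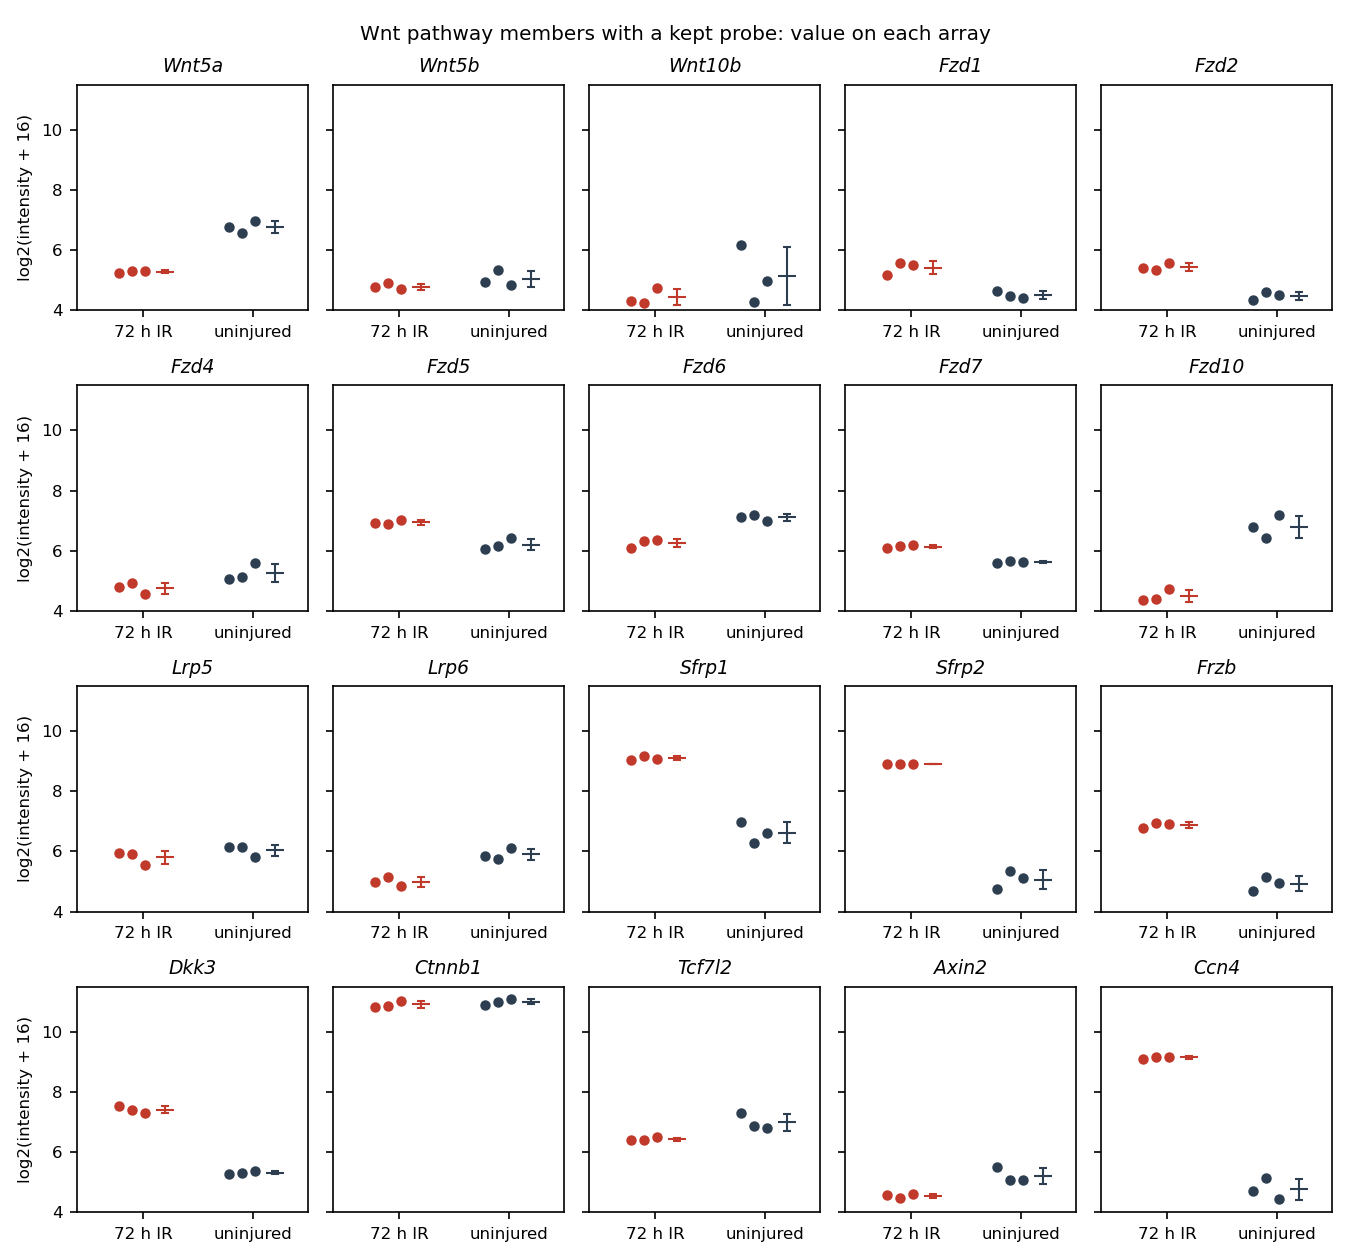
Value of each of the 20 Wnt genes with a kept probe on every array, as log2 of intensity plus 16 (vertical axis), with 72 h IR left of uninjured. Dots are single arrays, and the bar to the right of each group is its mean with the SD (n = 3). Ccn4, Sfrp2, Sfrp1, Dkk3 and Frzb are the genes at least 2-fold higher in IR hearts, and Fzd10 and Wnt5a are those at least 2-fold lower.

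The co-receptors Lrp5 and Lrp6, which join Frizzled receptors in the beta-catenin branch, were both detected on all 6 arrays. Lrp6 read 4.97, 5.16 and 4.84 on the IR arrays, against 5.85, 5.77 and 6.11 on the uninjured arrays. All IR values of this probe lay below all uninjured values, and its log2 fold change was -0.92 (SE 0.12, limma adjusted p = 0.000281). The second Lrp6 probe has a transcript record in the annotation, while the first has none. This second probe was detected on all 3 IR arrays and on no uninjured array, and was called higher (0.30, limma adjusted p = 0.0176). Its IR mean of 4.79 showed no rise against the lowest detected signal of the uninjured arrays (4.69 to 4.88), so it gives no direction. Lrp5 read 5.94, 5.92 and 5.54 on the IR arrays, against 6.15, 6.15 and 5.81 on the uninjured arrays. The groups overlapped and its log2 fold change of -0.23 (SE 0.142, limma adjusted p = 0.173) did not pass.

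Of 11 inhibitor genes, 4 had a kept probe (Sfrp1, Sfrp2, Frzb and Dkk3), and each of these was at least 2-fold higher in IR hearts, beside 15% of all genes. Their groups did not overlap, with IR above, beside 40.7% of all genes.

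Sfrp2, a secreted Frizzled-related protein known from fibroblasts and wound repair, read 8.91, 8.92 and 8.89 on the IR arrays, against 4.74, 5.36 and 5.10 on the uninjured arrays. The IR values were tight and far above uninjured values that stood near background, where 2 of 3 arrays detected the gene. Sfrp2 averaged 8.91 ± 0.0154 in IR hearts and 5.07 ± 0.314 in uninjured hearts (SD, n = 3 each), a log2 fold change of 3.84 (SE 0.149, limma adjusted p = 5.44e-07), or 14.3-fold. The Sfrp2 window shown above held no CTTTGA on either strand, and neither did that of Axin2.

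Sfrp1, a relative of Sfrp2 that binds Wnt proteins, read 9.05, 9.19 and 9.07 on the IR arrays, against 6.99, 6.27 and 6.62 on the uninjured arrays. It was detected on every array, and each IR value was far above each uninjured value. Its log2 fold change was 2.48 (SE 0.169, limma adjusted p = 8.21e-06), or 5.56-fold, and its second probe gave 2.19 (limma adjusted p = 8.57e-06).

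Frzb, a secreted Wnt binder first known from cartilage, read 6.78, 6.95 and 6.93 on the IR arrays, against 4.68, 5.16 and 4.96 on the uninjured arrays. All IR values were higher, and 2 of 3 uninjured arrays detected the gene. Its log2 fold change was 1.95 (SE 0.127, limma adjusted p = 6.17e-06), or 3.87-fold. Dkk3, a Dickkopf family member whose action on Wnt signalling is less clear than that of Dkk1, read 7.54, 7.39 and 7.31 on the IR arrays, against 5.27, 5.32 and 5.36 on the uninjured arrays. The groups were well apart and tight, with a log2 fold change of 2.10 (SE 0.0797, limma adjusted p = 5.2e-07), or 4.27-fold. The second kept Dkk3 probe gave 1.95 (limma adjusted p = 0.000239).

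The other 7 inhibitors had no kept probe and were tested only without the filter on dim probes, where 1 of them, Wif1, was called. In that setting 3972 of all 19057 genes were called higher and 3546 lower. Dkk2, Dkk4, Sfrp4 and Sfrp5 were not detected on any array. Dkk1, the classical inhibitor of Lrp5 and Lrp6, and Dkkl1 were each detected on 1 IR array and on no uninjured array. Wif1, a secreted Wnt binder, was detected on 2 uninjured arrays and on no IR array, with deposited intensities of 91.5, 93.2 and 92.7 on the IR arrays, against 103.5, 86.7 and 99.3 on the uninjured arrays. These intensities overlapped, but the normalized values did not: Wif1 read 4.54, 4.53 and 4.55 on the IR arrays, against 5.54, 4.68 and 5.26 on the uninjured arrays. Without the filter on dim probes its log2 fold change was -0.62 (limma adjusted p = 0.0482), with the IR values below detection.

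Beside the secreted inhibitors, all 8 activated fibroblast markers were called higher (Postn showed no rise against its bound), and so were the macrophage markers, as given above. Their part in the inhibitor results was not tested.

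**Figure D3:**
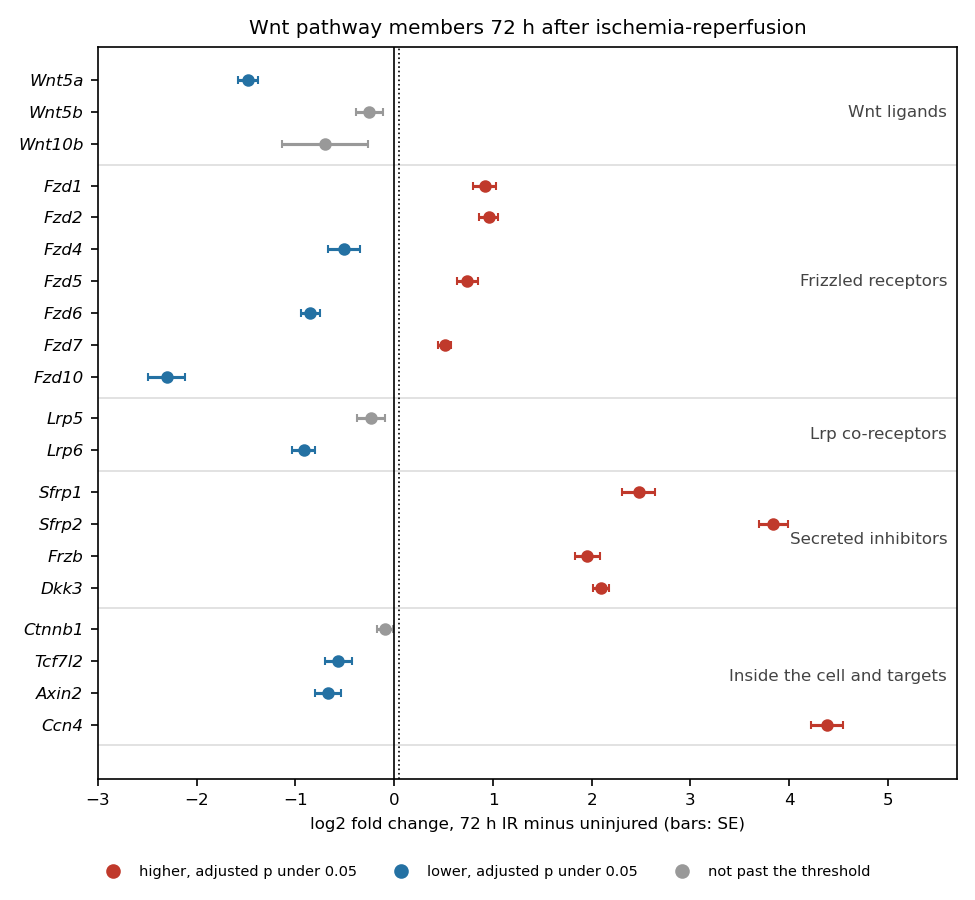
Log2 fold change (horizontal axis, 72 h IR minus uninjured, bars show the SE) of the 20 Wnt genes with a kept probe, ordered by role, with the median of all genes as a dotted line at 0.05. The 4 secreted inhibitors lie between 1.95 and 3.84, the Frizzled receptors on both sides of 0, and no ligand lies above 0. Fzd1, Fzd2 and Axin2 were below detection on all arrays of 1 group, so their points are fitted values.

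Inside the cell, Ctnnb1, which encodes beta-catenin, read 10.83, 10.87 and 11.03 on the IR arrays, against 10.91, 11.01 and 11.10 on the uninjured arrays. The groups overlapped, and its log2 fold change of -0.09 (SE 0.085, limma adjusted p = 0.348) did not pass. Its 4 kept probes did not point one way: 2 did not pass, 1 was lower (-0.84, limma adjusted p = 0.000847) and 1, matched to a separate transcript record and detected on 1 of 3 uninjured arrays, was higher (0.49, limma adjusted p = 0.00955). RNA levels say nothing of beta-catenin protein, which is controlled by breakdown.

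Tcf7l2, a TCF factor that partners beta-catenin on DNA, read 6.40, 6.40 and 6.49 on the IR arrays, against 7.32, 6.87 and 6.80 on the uninjured arrays. All IR values lay below all uninjured values, with a log2 fold change of -0.56 (SE 0.137, limma adjusted p = 0.00719), which turned to 0.09 (adjusted p = 0.612) when arrays were scaled to the median of all probes. The second Tcf7l2 probe did not pass (-0.48, limma adjusted p = 0.0526). Lef1, a further TCF and LEF factor, was not detected on any array by any of its 4 probes.

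Axin2, a target of beta-catenin that feeds back on the destruction complex and is widely used as a readout of the pathway, read 4.57, 4.47 and 4.60 on the IR arrays, against 5.51, 5.07 and 5.06 on the uninjured arrays. No IR array detected it and all 3 uninjured arrays did. Axin2 was therefore at least 1.48-fold lower in IR hearts, with means of 4.55 ± 0.0703 in IR hearts and 5.22 ± 0.258 in uninjured hearts (SD, n = 3 each). The limma adjusted p of 0.00237 belongs to these means and not to the bound. Axin2 passed the detection filter through the uninjured arrays alone, so some difference was built in by the filter.

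Ccn4, a matricellular protein once named Wisp1 as a Wnt-induced gene, read 9.11, 9.17 and 9.17 on the IR arrays, against 4.72, 5.13 and 4.44 on the uninjured arrays. The IR values were tight, and the gene was detected on 1 of 3 uninjured arrays. Ccn4 averaged 9.15 ± 0.0371 in IR hearts and 4.76 ± 0.347 in uninjured hearts (SD, n = 3 each), a log2 fold change of 4.39 (SE 0.162, limma adjusted p = 4.69e-07). With the 2 uninjured values below detection raised to the lowest detected signal of their arrays, Ccn4 was at least 18.5-fold higher. Its second, dimmer probe was detected on all 3 IR arrays and on no uninjured array, and was at least 1.74-fold higher. The limma adjusted p of 1.96e-05 for this probe belongs to its fitted log2 fold change of 1.09 and not to the bound. Ccn4 and Axin2, both listed as targets of the pathway, moved in opposite directions.

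The 6 array numbers fall in a lower range (106, 107, 109 and 110) and a higher range (886 and 904), each holding arrays of both groups, which neither labels nor headers explain. Within the lower range alone, 9 of the 20 Wnt genes were higher and 6 lower, beside 3654 and 3274 of all 10204 genes. Fzd4 was no longer called there (-0.24, limma adjusted p = 0.0796). The higher range has 1 array of each group and gives no test. With the range as a block, 9 Wnt genes were higher and 8 lower, beside 3993 and 3496 of all genes. The added gene was Lrp5 (-0.23, limma adjusted p = 0.0171).

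The counts of lower calls changed with the scaling of the arrays. Scaling to the median of all probes moved the median log2 fold change over all 10204 genes to 0.52, and scaling to that of kept probes only moved it to -0.14, against 0.05 under quantile normalization. The share of all calls that were higher in IR was 77.5% and 42.7% under these scalings, against 53.3% under quantile normalization. The count of Wnt genes called higher was 9 in all 3 cases, and the count called lower was 4 with all probes and 10 with kept probes, against 7. Over all genes, 6098 and 3324 were called higher and 1775 and 4464 lower, against 4022 and 3523. Relative to the median of all genes, each of the 20 Wnt genes stayed on the same side under these 3 settings and under quantile normalization without background correction. All-probe and kept-probe scaling differ only by a constant for each array. Positions relative to that median are therefore the same under both by construction, and their agreement adds nothing. Relative to that median, Wnt5a, for example, stood at -1.53 under quantile normalization and at -1.43 under both all-probe and kept-probe scaling. Sfrp2 stood at 3.79 and 3.74.

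**Figure D4:**
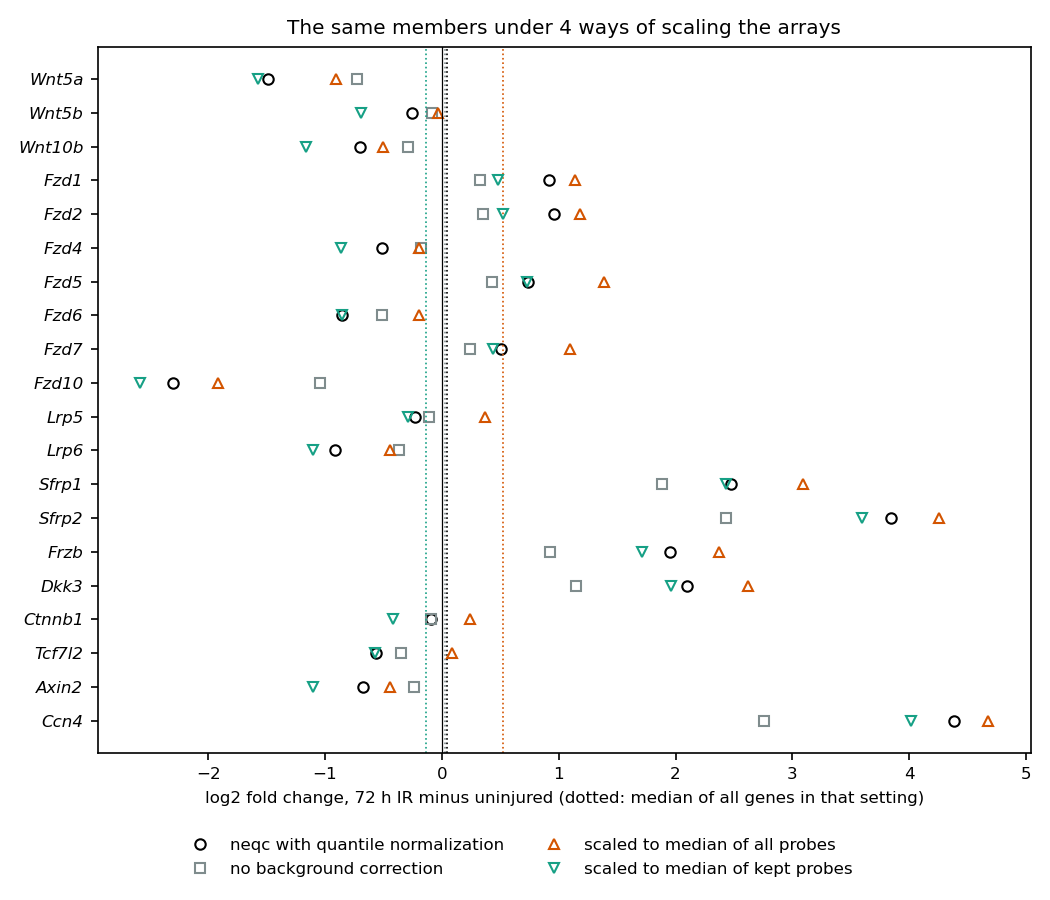
Log2 fold change (horizontal axis, 72 h IR minus uninjured) of the 20 Wnt genes under 4 ways of scaling the arrays, with the median of all genes under each as a dotted line of the same colour. Scaling to all probes moves every gene to the right of its value under quantile normalization with background correction, and Ctnnb1, Lrp5 and Tcf7l2 pass 0. Each gene stays on the same side of the dotted line of each setting, which is fixed by construction between all-probe and kept-probe scaling.

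The rest of the pathway was read from 7 lists of 120 genes, of which 114 were on the array and 79 had a kept probe. Of these, 35 were higher in IR hearts, or 44.3%, and 28 were lower, or 35.4%, beside 39.4% and 34.5% of all genes. The median log2 fold change of the 79 was 0.10, against 0.05 over all genes. These shares are near the background.

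In the module for Wnt secretion and R-spondin signalling, 3 of 12 genes could be tested. Wls, the carrier that brings Wnt proteins to the cell surface, read 8.78, 8.81 and 8.85 on the IR arrays, against 7.69, 7.81 and 7.95 on the uninjured arrays, a log2 fold change of 1.00 (limma adjusted p = 2.17e-05). Lgr6, an R-spondin receptor, averaged 4.68 ± 0.106 in IR hearts and 6.48 ± 0.0991 in uninjured hearts (SD, n = 3 each), a log2 fold change of -1.80 (limma adjusted p = 1.35e-06), and 1 IR array detected it. Porcn, the enzyme that adds the lipid to Wnt proteins, was lower by a small margin (-0.30, limma adjusted p = 0.0316), but the call was lost in 8 of 16 alternatives (adjusted p of 0.0543 to 0.105) and the sign turned (0.25) under scaling to all probes. The 8 were those without IR array 107, IR array 886 or uninjured array 110, without background correction, with the authors' values, without the filter on dim probes, with trend and robust variance, and with the lower array numbers only. Rspo1 and Rspo3, secreted R-spondins, had no kept probe.

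Among other secreted and surface modulators, 5 of the 12 tested genes were higher and 6 were lower, beside 39.4% and 34.5% of all genes. Cthrc1, a secreted protein reported to favour Wnt signalling without beta-catenin and also on the activated fibroblast list, read 9.15, 9.08 and 9.13 on the IR arrays, against 4.34, 4.26 and 4.36 on the uninjured arrays, where it was not detected. It was at least 20.1-fold higher and passed the detection filter through the IR arrays alone. Its limma adjusted p of 6.36e-08 belongs to the fitted values and not to the bound. Serpinf1, a secreted serpin reported to bind Lrp6, had a log2 fold change of 1.94 (limma adjusted p = 3.64e-07). Gpc1, a glypican of the cell surface, had one of -1.76 (limma adjusted p = 5.48e-07), averaging 10.69 ± 0.0539 in IR hearts and 12.45 ± 0.0626 in uninjured hearts (SD, n = 3 each).

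For the destruction complex and Dishevelled proteins, 5 of 13 tested genes were higher and 4 lower, beside 39.4% and 34.5% of all genes. All of these changes were less than 2-fold. The scaffold Axin1 was higher by 0.78 (limma adjusted p = 2.48e-05), in contrast to its paralog Axin2. The kinase Csnk1d was higher by 0.83 (limma adjusted p = 0.00016), and Nkd2, which binds Dishevelled, by 0.85 (limma adjusted p = 0.00285). Gsk3b, the kinase of the complex (-0.33, limma adjusted p = 0.00234), and Dvl1, a Dishevelled protein (-0.31, limma adjusted p = 0.0035), were lower under quantile normalization and higher under scaling to all probes (0.27 and 0.34). Apc, the other scaffold, did not pass (-0.24, limma adjusted p = 0.319) except without IR array 107 (-0.47, limma adjusted p = 0.0255), and its sign also turned under that scaling (0.29). The call of Dvl1 was lost with the mean of all kept probes (-0.12, adjusted p = 0.102). Dvl2 and Dvl3 had no kept probe.

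Among nuclear partners of beta-catenin, 5 of 18 tested genes were higher and 6 lower, beside 39.4% and 34.5% of all genes. Tle5, a short member of the Groucho corepressor family, had a log2 fold change of -1.22 (limma adjusted p = 1.29e-05). Pygo2, a co-activator, had one of 0.87 (limma adjusted p = 1.91e-05) and Tbl1xr1, a cofactor exchange protein, one of 0.81 (limma adjusted p = 2.94e-05). Tcf7l1, a TCF factor that often represses, was lower by a small margin (-0.25, limma adjusted p = 0.0141), lost the call without IR array 886 (adjusted p = 0.0556) or with the lower array numbers only (adjusted p = 0.0881), and was higher under scaling to all probes (0.38). Tcf7 had no kept probe.

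Of the known beta-catenin targets, 14 were tested, and 11 were higher and 2 lower, beside 39.4% and 34.5% of all genes. At least 2-fold higher were 9 of them, beside 15% of all genes, and their median log2 fold change was 1.53. With the 2 targets below detection in 1 group at their bounds, 8 were at least 2-fold higher and the median was 1.5. Markers of activated fibroblasts and macrophages were higher in the same hearts, and their part in these values was not tested. The list was also chosen with earlier results of these data known. Fn1, the matrix protein fibronectin, read 10.64, 10.79 and 10.74 on the IR arrays, against 6.36, 6.72 and 6.40 on the uninjured arrays (log2 fold change 4.23, limma adjusted p = 1.54e-07). Birc5, the cell division protein survivin, had a log2 fold change of 3.42 (limma adjusted p = 3.25e-07) and Cd44, a hyaluronan receptor, one of 2.64 (limma adjusted p = 1.76e-06). Ccnd1, cyclin D1, was higher by 0.36 (limma adjusted p = 0.00515), a call lost under scaling to kept probes (0.07, adjusted p = 0.496). The lower targets were Ccnd2 (-0.77, limma adjusted p = 0.000389) and Tnfrsf19. No IR array detected Tnfrsf19, which was at least 1.32-fold lower and passed the detection filter through the uninjured arrays alone. Its limma adjusted p of 8.08e-05 belongs to the fitted values and not to the bound. Apcdd1 did not pass (0.30, limma adjusted p = 0.147). Myc had no kept probe. Ccn5, the only tested gene of the CCN family outside Ccn4 and these targets, was 9.4-fold higher (log2 fold change 3.23, limma adjusted p = 5.48e-07).

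In the branch that works without beta-catenin, 7 of 18 tested genes were higher and 8 were lower, beside 39.4% and 34.5% of all genes. Of the 18, 4 were at least 2-fold lower, beside 13.6% of all genes. Ryk and Ror2, receptors that bind Wnt5a, were both higher in IR hearts, while the ligand Wnt5a itself was lower. Ryk read 9.75, 9.62 and 9.72 on the IR arrays, against 8.85, 8.89 and 8.69 on the uninjured arrays (log2 fold change 0.89, limma adjusted p = 3.63e-05). Ror2 read 5.49, 5.29 and 5.63 on the IR arrays, against 4.61, 4.62 and 5.09 on the uninjured arrays (0.70, limma adjusted p = 0.00457). Neither gene's groups overlapped, and 1 of 3 uninjured arrays detected Ror2, whose call was lost under scaling to kept probes (0.38, adjusted p = 0.0541). The calcium-dependent kinases Camk2a and Camk2b were lower, by log2 fold changes of -1.90 (limma adjusted p = 1.72e-05) and -1.79 (limma adjusted p = 1.08e-05). Prickle1, a core planar polarity protein, was lower at -1.63 (limma adjusted p = 1.5e-06). Measured cardiomyocyte markers other than Nppa were lower in the same hearts, and their part in these values was not tested.

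**Figure D5:**
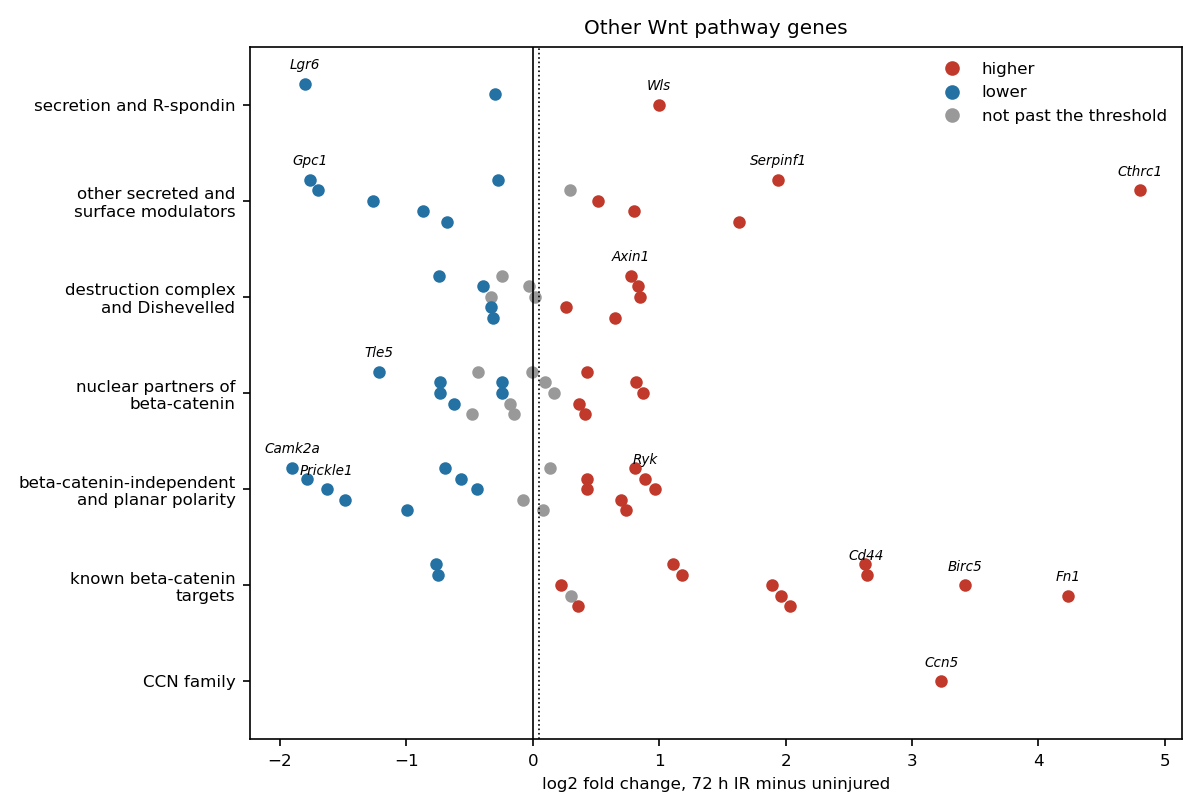
Log2 fold change (horizontal axis, 72 h IR minus uninjured) of the 79 other pathway genes with a kept probe, 1 row of points per list, coloured by the limma call. The dotted line marks the median of all genes at 0.05. Of the known beta-catenin targets 11 of 14 are higher and 2 lower, beside 39.4% and 34.5% of all genes. Points of 5 genes below detection in all arrays of 1 group, Cthrc1 among them, are fitted values and not measured sizes.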

How the data were processed

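Total RNA was labelled with biotin and hybridised to 1 single-colour Illumina bead array per sample, 3 in each group. Per the file headers, the authors deposited a mean bead intensity and a detection p-value for 45281 probes on each array, and the submitters' processing notes name GenomeStudio 2010.3. The authors' processed values, linear intensities with column medians of 88.37 to 88.43 and the same probe ranks, served as an alternative.

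In R 4.3.3, limma 3.58.1 was used, with statmod 1.5.0 where the fit was robust. Its neqc function estimated background from the detection p-values, added an offset of 16, quantile-normalized and took log2. Probes with a detection p-value under 0.05 on at least 3 of 6 arrays were kept (18197). A gene took its kept probe with the highest mean. Groups were compared with lmFit and eBayes without a block, because signal columns carry array numbers and no replicate number. A permutation test of 3 against 3 arrays cannot go below p = 0.1. The number of arrays limits the precision. The group comparison was tested on simulated normalized values, and the symbol rule and probe choice on made-up examples. Background correction, normalization and the detection filter were not tested in this way.

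Of all probes, 34885 had 1 symbol in the platform annotation (symbols updated through RefSeq identifiers), 18 had several and 10378 had none. Probes of related family members can bind each other's transcripts. The Wnt genes, pathway lists and cell type markers were chosen with earlier results of these data known. Every Wnt gene with a kept probe could be named. From each pathway list the text names up to 3 called genes with the largest change, plus a set named for its roles (such as Gsk3b, Apc, Ryk and Myc). The beta-catenin targets that were lower or did not pass are named too. Alternatives varied background correction, scaling, filter, probe rule, variance model and array number range, used the authors' values, and left out each array.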

Additional observations from a re-analysis of the deposited data

How the results depend on the processing

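Of the 20 Wnt genes, 13 kept their direction and side of the threshold under each alternative that gave them a value, and 17 never changed sign. Requiring detection on all 6 arrays gave no value for 7 of the 13 (Axin2, Ccn4, Frzb, Fzd1, Fzd2, Fzd10 and Sfrp2). Without the filter on dim probes all 11 secreted inhibitors were tested, 4 were higher and 1, Wif1, was lower, beside 3972 and 3546 of 19057 genes in all. Scaling to the median of all probes turned Ctnnb1 (0.24), Lrp5 (0.37), Tcf7l2 (0.090), Apc (0.29), Dvl1 (0.34), Gsk3b (0.27), Porcn (0.25) and Tcf7l1 (0.38) to the positive side. It left 4 Wnt genes lower, 12 genes of the other pathway lists lower, and 6098 genes higher and 1775 lower in all; the cause was not tested. The same scaling ended the call of Fzd6 (-0.20, limma adjusted p = 0.234) and Fzd4 (-0.20, limma adjusted p = 0.201). Apc also turned with the lower array numbers only (0.0054). Requiring detection on all 6 arrays left 10 Wnt genes to test, of which 4 were higher and 4 lower, beside 3045 and 3217 of 8054 genes in all. Scaling to the kept probes called Wnt5b (-0.69, limma adjusted p = 0.000368), Wnt10b (-1.17, limma adjusted p = 0.0213) and Ctnnb1 (-0.42, limma adjusted p = 0.00497). Leaving out each array in turn gave 9 Wnt genes higher each time and 6 to 8 lower, beside 3737 to 4035 and 3300 to 3533 of all 10204 genes. No paired analysis was possible because the signal columns carry array numbers and no replicate numbers. Signal near background limits the dimmer Wnt genes: 24 of 48 were not detected on any array.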
